A study of Mus musculus with 36 samples.

Results

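Wild-type mouse bone marrow macrophage cultures with and without RANK-L, the cytokine that turns macrophage precursors into osteoclasts, were compared after the same time in culture. The comparison used 12 of the 36 libraries of the series, chosen by their titles: 6 of macrophages kept in M-CSF alone (BMM) and 6 of cultures labelled osteoclasts (OC), which received M-CSF and RANK-L. The cells came from the marrow of the long bones of wild-type control mice aged 20 weeks. All were first kept for 3 days in M-CSF at 100 ng/mL. They were then cultured for 5 days in M-CSF at 30 ng/mL, without RANK-L for BMM and with RANK-L at 50 ng/mL for OC. The wild-type libraries were also set beside 12 libraries of Mir324-null BMM and OC cultured in the same way, and beside 6 wild-type osteoblast libraries for a check of cell type. The labels do not say whether the 6 libraries of a group came from separate animals, so p-values measure the spread between these libraries, which may be technical.

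Osteoclasts are large cells formed by fusion of macrophage-lineage precursors, and they are the cells that dissolve bone. RANK-L binds its receptor RANK and, together with receptors that signal through ITAM adaptors, drives NF-kB, AP-1 and the transcription factor NFATc1. The mature cell seals off an area of bone with a ring of podosomes, pumps protons into it through a V-ATPase, and secretes proteases such as cathepsin K. M-CSF keeps precursors alive and is needed for both macrophages and osteoclasts.

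The 12 libraries held 16582351 to 23479985 estimated counts each. Of 10 osteoclast markers, 10 were higher in OC, and of 10 macrophage markers, 10 were lower, with no overlap between groups for any of them. Over all genes tested, 35.5% were higher, 35.5% were lower and 52.2% did not overlap. The markers were chosen with earlier results of these data known, so they are not an independent check. Because these are bulk cultures, fewer cells of a type and less RNA per cell cannot be told apart. The 10 highest genes held 17.6% ± 0.698 of the counts in BMM and 10.3% ± 0.0987 in OC (SD, n = 6; exact permutation test, two-sided p = 0.00216, the smallest that 6 against 6 libraries can give, adjusted over 4 measures 0.00288). Of the lists of other cell types, the 13 osteoblast and stromal genes summed to at most 8.25 TPM (transcript abundance per length, scaled to a fixed total) in BMM and 5.02 TPM in OC, against 26963 to 38172 TPM in wild-type osteoblasts, with Alpl, Sp7, Lum and Cxcl12 at 3 counts or fewer in every BMM and OC library. Neutrophil, lymphoid, erythroid and mast cell genes summed to at most 4.24, 1.92, 0.285 and 0.792 TPM in any of the 12 libraries. The defining adipocyte genes were at 3 counts or fewer, while Adipor2, on the same list, had a mean of 24.4 TPM in BMM and 24.3 TPM in OC. The platelet and macrophage chemokine Pf4 had a mean of 773.6 TPM in BMM and 131.6 TPM in OC, and Pecam1, which endothelial cells share with myeloid cells, had 101.6 and 100.2 TPM.

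RANK-L changed most of the expressed genome of these cultures. Of 12058 genes tested with edgeR's quasi-likelihood test, 8557 passed an adjusted p of 0.05, which is 71.0% of them, 35.5% higher (4281 genes) and 35.5% lower (4276). Without scaling factors, by library size alone, the median of all genes moved by 0.149 on the log2 scale and the split became 5423 higher and 3293 lower. A change of more than 2-fold, tested as such, was called for 1947 genes (16.1%), of which 1016 were higher (8.43%) and 931 lower (7.72%). The groups did not overlap for 52.2% of all genes tested. Of the 1016 genes that rose, 372 rose over 8-fold, 181 over 32-fold, and 104 had at most 3 counts in every BMM library. Of the 931 that fell, 104 fell over 8-fold, 10 over 32-fold, and 5 had at most 3 counts in every OC library. The genes that rose held 2.62% ± 0.101 of all TPM in BMM and 12.7% ± 0.312 in OC, and those that fell held 23.1% ± 0.669 and 6.54% ± 0.179 (SD, n = 6).

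The most abundant transcripts of the 2 cultures overlapped in part. In BMM the highest genes per length were the ferritin chain Ftl1 (70935 ± 3913 TPM), lysozyme Lyz2 (45768 ± 4153 TPM), the second ferritin chain Fth1 (29833 ± 1018 TPM) and the lysosomal protease Ctsd (15082 ± 240 TPM; SD, n = 6). In OC, Ftl1 was still the highest at 41440 ± 1826 TPM, and cathepsin K (Ctsk), at 8.57 TPM in BMM, was second at 16526 ± 541 TPM. Acp5, the tartrate-resistant acid phosphatase by which osteoclasts are stained, was seventh at 9345 ± 512 TPM against 9.87 TPM in BMM, and the gelatinase Mmp9 was fifteenth at 4584 ± 583 TPM against 0.288 TPM. Ferritin and ribosomal protein genes have near-identical copies, so their counts are uncertain.

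Promoter windows of 4 genes with the largest changes are shown to let a reader see the letters at which osteoclast and macrophage factors could bind. They are RefSeq windows of build GRCm38.p6, from 250 bases before a transcript's start to 50 after it, written 5′ to 3′ on the gene's strand. Capitals mark matches on either strand to AP-1 (TGANTCA), PU.1 (GAGGAA) or NFAT (TGGAAA). Among genes with at least 100 CPM in the higher group, Rufy4, Oscar and Ctsk are 3 of the 8 largest rises and Fcrls is the largest fall.
Rufy4, chr1:74125291-74125590, plus strand: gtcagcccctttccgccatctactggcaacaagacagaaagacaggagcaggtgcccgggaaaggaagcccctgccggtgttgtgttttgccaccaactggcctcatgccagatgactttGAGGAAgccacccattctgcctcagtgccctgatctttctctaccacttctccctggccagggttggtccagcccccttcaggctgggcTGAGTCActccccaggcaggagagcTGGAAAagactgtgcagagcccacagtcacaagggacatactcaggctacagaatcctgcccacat
Oscar, chr7:3616108-3616407, minus strand: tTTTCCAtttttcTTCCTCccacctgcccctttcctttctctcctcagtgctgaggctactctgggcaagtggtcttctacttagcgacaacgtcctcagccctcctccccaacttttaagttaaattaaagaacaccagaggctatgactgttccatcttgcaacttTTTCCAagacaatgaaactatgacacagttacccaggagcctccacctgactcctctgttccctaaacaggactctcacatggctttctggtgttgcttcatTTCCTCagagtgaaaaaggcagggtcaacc
Ctsk, chr3:95498960-95499259, plus strand: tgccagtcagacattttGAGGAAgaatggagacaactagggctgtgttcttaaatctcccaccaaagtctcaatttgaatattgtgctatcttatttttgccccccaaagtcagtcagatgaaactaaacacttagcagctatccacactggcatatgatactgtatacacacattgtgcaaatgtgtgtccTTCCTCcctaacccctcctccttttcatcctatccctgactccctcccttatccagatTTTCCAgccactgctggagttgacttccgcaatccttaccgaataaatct
Fcrls, chr3:87263475-87263774, minus strand: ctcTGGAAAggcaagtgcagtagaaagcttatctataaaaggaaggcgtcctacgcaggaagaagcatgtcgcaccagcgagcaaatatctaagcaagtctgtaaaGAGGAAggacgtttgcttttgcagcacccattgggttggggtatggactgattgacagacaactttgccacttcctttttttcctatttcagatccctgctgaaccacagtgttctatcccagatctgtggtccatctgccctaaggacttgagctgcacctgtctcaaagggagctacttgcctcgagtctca
The Rufy4 window held 1 match to each of the 3 motifs, with the AP-1 match 41 bases and the NFAT match 16 bases before the start. The Oscar window held 2 NFAT and 2 PU.1 matches, the Ctsk window 2 PU.1 and 1 NFAT, and the Fcrls window, of a gene that fell, 1 of each of these 2. Across the windows of all genes tested (11897 windows of 9305 genes), 5.26% held the AP-1 motif, 26.8% the PU.1 motif and 16.8% the NFAT motif. In the windows of the genes that rose beyond 2-fold these shares were 8.71%, 26.2% and 18.2%, and in those of the genes that fell 7.78%, 32.5% and 17.4%. The differences between these shares were not tested. Of the 16 genes with the largest changes, 12 matched a window. The 4 windows shown all hold matches, but those of Mt3, Fcgr2b and Rnase4 held none, nor did some of those of Acp5 and Entpd1. A match is a run of letters and not evidence of binding.

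Where 1 value per group is given below without the word median, it is the mean of 6 libraries. The SE beside a log2 fold change is the absolute change divided by the square root of its F statistic. It is approximate and can be smaller than counting error alone where BMM counts are few, as for Mmp9 (37 in all), Siglec15, Sphk1 and Ciita. The largest rises among genes with at least 100 CPM (counts scaled to a fixed library total) in OC were Rufy4, Oscar, Mmp9, Mt3, Car2, Ctsk, F2r and Acp5. In BMM, Ctsk and Acp5 had low but well-measured levels of 8.05 and 8.60 CPM, and the others were at or near the limit of detection. All went to levels of abundant genes in OC. Rufy4 (chromosome 1, 74125541 to 74148223, plus strand; GRCm38 here and below), which has a role in autophagy and lysosome positioning, had no count in any BMM library. In OC it had 141 CPM in the lowest, 158 in the median and 173 in the highest library, at least 961-fold above the level of 3 counts in a BMM library. Oscar, the osteoclast-associated immunoreceptor that signals through an ITAM adaptor (chromosome 7, 3609813 to 3616157, minus strand), had 1 count in 1 BMM library and 328, 344 and 355 CPM (lowest, median, highest) in OC, a ratio with a 95% counting interval of 6888 to 1515910. Counting intervals and floors cover counting error only. The metallothionein Mt3 (chromosome 8, 94152607 to 94154146, plus strand) had 3 counts in BMM in all and 149, 203 and 226 CPM in OC (counting interval of the ratio 2560 to 36277). All OC libraries of these genes were above all BMM libraries.

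Among genes with measurable BMM counts, Mmp9, a collagen- and gelatin-cleaving protease (chromosome 2, 164940780 to 164955850, plus strand), had 0.0983, 0.340 and 0.718 CPM in BMM and 6265, 6947 and 8130 CPM in OC (lowest, median, highest), a log2 fold change of 14.34 ± 0.16 (SE; edgeR adjusted p = 5.37e-19). Ctsk, the protease that cuts bone collagen (chromosome 3, 95499256 to 95509362, plus strand), had 6.74, 7.53 and 10.3 CPM in BMM and 13434, 14221 and 14877 CPM in OC, a log2 fold change of 10.79 ± 0.10 (SE; edgeR adjusted p = 1.85e-20). Acp5 (chromosome 9, 22126727 to 22135711, minus strand) had 6.69, 8.58 and 10.01 CPM in BMM and 7032, 7234 and 7545 CPM in OC, a log2 fold change of 9.72 ± 0.09 (SE; edgeR adjusted p = 3.16e-21). For each of these genes of the resorbing cell the gap in CPM between groups was far larger than the range within either. Car2, the carbonic anhydrase that supplies protons for acid secretion (chromosome 3, 14886273 to 14900770, plus strand), had at most 0.134 CPM in BMM and 224 to 264 CPM in OC. Its BMM counts were few, 6 in all and at most 3 in a library (95% counting interval of the ratio 2060 to 12218). F2r, a thrombin receptor (chromosome 13, 95601803 to 95618487, minus strand), had at most 0.233 CPM in BMM and 97.1 to 126 CPM in OC. Both rose, with edgeR adjusted p of 3.25e-19 for Car2 and 1.40e-16 for F2r.

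**Figure D1:**
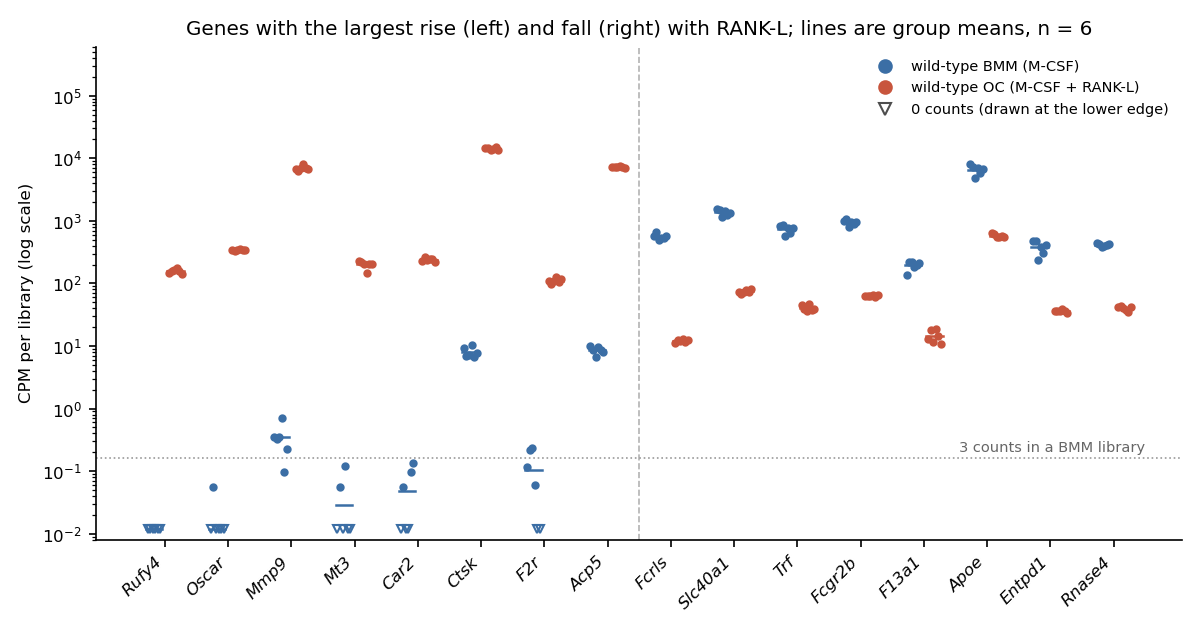
CPM (log axis) of the 8 genes with the largest rise, left of the dashed line, and the 8 with the largest fall in each wild-type BMM (blue) and OC (red) library; short lines are group means, open triangles libraries with 0 counts and the dotted line the level of 3 counts in a BMM library. No gene shown has groups that overlap; the OC libraries of Rufy4 sit between 141 and 173 CPM while every BMM library has 0.

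The largest falls, in the same class of abundant genes, were Fcrls, Slc40a1, Trf, Fcgr2b, F13a1, Apoe, Entpd1 and Rnase4. They are genes of resident macrophages, iron and lipid handling and antibody binding, and all kept measurable levels in OC. Fcrls, an Fc receptor-like scavenger (chromosome 3, 87250758 to 87263738, minus strand), had 490, 560 and 652 CPM in BMM and 11.01, 12.3 and 12.7 CPM in OC, a log2 fold change of -5.54 ± 0.07 (SE; edgeR adjusted p = 4.49e-19). Slc40a1, ferroportin, the exporter of cellular iron (chromosome 1, 45908068 to 45926523, minus strand), had 1143, 1394 and 1525 CPM in BMM and 67.7, 73.1 and 82.6 CPM in OC, a log2 fold change of -4.20 ± 0.08 (SE; edgeR adjusted p = 2.75e-17). Every BMM library of both genes was above every OC library. Apoe, an apolipoprotein made in bulk by macrophages (chromosome 7, 19696109 to 19699188, minus strand), had 4793, 6820 and 8157 CPM in BMM and 548, 567 and 639 CPM in OC, a log2 fold change of -3.502 ± 0.11 (SE; edgeR adjusted p = 2.22e-12). The inhibitory Fc receptor Fcgr2b (chromosome 1, 170958617 to 170976547, minus strand) fell 14.99-fold, transferrin Trf (chromosome 9, 103204001 to 103230444, minus strand) 18.2-fold and coagulation factor F13a1 (chromosome 13, 36867178 to 37050244, minus strand) 13.5-fold. Entpd1, the ectonucleotidase CD39 (chromosome 19, 40612366 to 40741602, plus strand), fell 10.5-fold. Rnase4 (chromosome 14, 51091077 to 51106151, plus strand), a secreted ribonuclease whose gene overlaps Ang, so that its counts are uncertain, fell 10.3-fold. None of these groups overlapped.

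Genes of bone resorption rose almost as a whole: of 16 tested, 15 rose, 0 fell and 1 did not pass, and the median log2 fold change was 3.79 against -0.002 over all genes. Beyond 2-fold, 12 rose (8.43% of all genes did). The counts of this list and of those below stand against 35.5% higher and 35.5% lower over all genes tested. Beyond 2-fold these shares were 8.43% and 7.72%. The calcitonin receptor Calcr, which shuts down the resorbing cell when its hormone binds, had no count in BMM and 33.6 ± 2.49 CPM in OC (SD, n = 6), at least 206-fold above the level of 3 counts, and the list's median was the same with Calcr at that bound. Slc4a2, the anion exchanger that balances proton export, went from 52.0 to 599 CPM, and Snx10, a sorting protein needed for resorption, from 145 to 956 CPM. Clcn7, the chloride transporter paired with the pump, had 281, 302 and 334 CPM in BMM and 662, 708 and 799 CPM in OC (log2 fold change 1.23 ± 0.05 SE, edgeR adjusted p = 1.28e-12). Mmp14 rose from 1.54 to 86.7 CPM. Rab7, a general endosomal GTPase, was the gene that did not pass (756 and 731 CPM). Together the 16 genes went from 0.319% ± 0.0147 to 3.71% ± 0.166 of all TPM.

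The V-ATPase is a proton pump of many subunits, some of which exist in variants used by particular cells. Of 18 subunit and accessory genes tested, 16 rose and 2 fell, with a median log2 fold change of 1.02, and 7 rose and 1 fell beyond 2-fold. The 2 versions of subunit d went opposite ways. Atp6v0d2, the variant of osteoclasts, had 68.8, 94.9 and 108 CPM in BMM and 1460, 1523 and 1604 CPM in OC (log2 fold change 4.05 ± 0.09 SE, edgeR adjusted p = 3.60e-16). Atp6v0d1, the common form, had 355, 377 and 383 CPM in BMM and 303, 314 and 327 CPM in OC (log2 fold change -0.24 ± 0.04 SE, edgeR adjusted p = 1.56e-05). Per length, the 2 stood at 54.2 and 360 TPM in BMM and at 977 and 331 TPM in OC, so their order was reversed. The variants of subunit a also split: Tcirg1 (a3, which goes to the ruffled border) rose from 490 to 602 CPM in BMM to 1203 to 1353 CPM in OC, while Atp6v0a1 fell from a mean of 496 to 149 CPM. Atp6v1b2 rose most among the remaining subunits, from 666 to 2565 CPM.

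Genes of the lysosome list, many of which share the acidic compartment with the pump, did not follow it. The list leaves out Ctsk and Acp5, counted under bone resorption, which stood at 16526 and 9345 TPM in OC. Its direction and its share of TPM hold only for the list without these 2 genes. Of 34 tested, 25 fell, 4 rose and 5 did not pass, with a median log2 fold change of -0.55. Beyond 2-fold, 9 fell and 0 rose. Ctsb, a broad lysosomal protease, had 30062, 32090 and 36210 CPM in BMM and 8346, 8739 and 9082 CPM in OC (log2 fold change -1.90 ± 0.05 SE, edgeR adjusted p = 1.15e-15). The membrane protein Lamp1 had 673, 811 and 1098 CPM in BMM and 116, 252 and 307 CPM in OC, a wider spread than that of most genes named here (log2 fold change -1.86 ± 0.22 SE, edgeR adjusted p = 9.01e-06). Both genes were lower in every OC library than in any BMM library. Ctsd fell from 20960 to 5264 CPM, Ctss from 2338 to 1525 CPM, and Glb1, a galactosidase, rose from 221 to 435 CPM. The lysosomal list went from 5.29% ± 0.148 to 2.90% ± 0.113 of all TPM, and the V-ATPase list from 0.868% ± 0.0170 to 1.91% ± 0.0352 (SD, n = 6). The E-box motif CACGTG, the core of the site read by MITF and its relatives TFEB and TFE3, was in 28.6% of the 28 promoter windows of the lysosomal list and in 4 of the 16 windows of the V-ATPase list, against 9.98% of all windows. Of the genes of these factors and their relative Tfec, Mitf rose from a mean of 90.8 to 114 CPM and Tfec from 13.7 to 21.9 CPM, while Tfe3 fell from 167 to 101 CPM and Tfeb from 13.5 to 11.5 CPM.

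**Figure D2:**
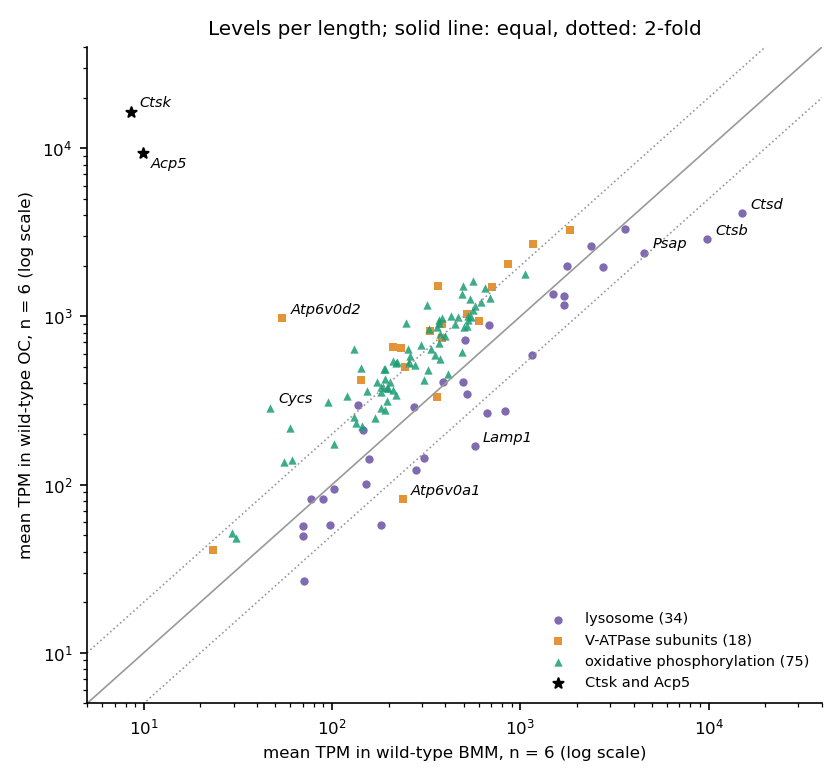
Mean TPM in wild-type BMM (x axis) and OC (y axis), both on log scales with n = 6 libraries, for each tested gene of the lysosome, V-ATPase and oxidative phosphorylation lists and for Ctsk and Acp5; the solid line marks equal levels and the dotted lines 2-fold. Most lysosomal points lie below the solid line (25 of 34 fell), most V-ATPase points (16 of 18 rose) and oxidative phosphorylation points (73 of 75 rose) above it, and Ctsk and Acp5 stand far to the upper left.

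Cell fusion makes the multinucleated osteoclast. Of 12 fusion genes tested (Adam12 was not), 7 rose, 3 fell and 2 did not pass, with a median log2 fold change of 1.27, and 6 rose and 2 fell beyond 2-fold. Of all genes tested, 35.5% rose and 35.5% fell, and beyond 2-fold 8.43% and 7.72%. Dcstamp and Ocstamp, membrane proteins required for fusion, had 0.386 to 1.46 and 0.351 to 1.18 CPM in BMM and 362 to 419 and 345 to 394 CPM in OC. Siglec15, a sialic acid receptor of fusing precursors, had 0.0598, 0.331 and 0.492 CPM in BMM and 30.6, 32.2 and 35.4 CPM in OC (log2 fold change 6.71 ± 0.15 SE, edgeR adjusted p = 2.42e-16). Not one BMM library reached the level of an OC library for these 3 genes. The tetraspanin Cd81 fell from 1155 to 354 CPM and Adam8 from 1634 to 587 CPM. A related tetraspanin, Cd9, did not pass, with 497 to 615 CPM in BMM and 511 to 645 CPM in OC (edgeR adjusted p = 0.151; 0.0298 without OC replicate 4).

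The actin ring by which osteoclasts seal to bone is built of podosomes, with integrin αvβ3 and the kinase Src at their core. Of 20 podosome genes tested, 13 rose, 4 fell and 3 did not pass (median log2 fold change 0.91), and 9 rose beyond 2-fold while 0 fell. Src had 0.358, 0.891 and 1.88 CPM in BMM and 114, 122 and 126 CPM in OC (log2 fold change 7.03 ± 0.18 SE, edgeR adjusted p = 3.84e-14). Itgb3, the β3 chain, had 10.7, 13.95 and 19.7 CPM in BMM and 445, 492.8 and 592 CPM in OC (log2 fold change 5.05 ± 0.15 SE, edgeR adjusted p = 1.87e-12). Both were higher in all OC libraries. Its partner Itgav rose from 151 to 748 CPM and cortactin (Cttn) from 7.34 to 121 CPM. Ptk2b (PYK2), a kinase of the same structure, fell from 244 to 136 CPM.

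Upstream of these programs, the receptors and adaptors moved in both directions. Of 17 genes of RANK, M-CSF receptor and ITAM signalling tested, 5 rose, 9 fell and 3 did not pass, with a median log2 fold change of -0.38. Over all genes, 35.5% rose and 35.5% fell. Tnfrsf11a, which encodes RANK, had 38.2, 53.5 and 61.5 CPM in BMM and 130, 135 and 152 CPM in OC (log2 fold change 1.42 ± 0.09 SE, edgeR adjusted p = 3.57e-10). Csf1r, the M-CSF receptor, had 1595, 1820 and 1935 CPM in BMM and 1242, 1367 and 1487 CPM in OC (log2 fold change -0.38 ± 0.05 SE, edgeR adjusted p = 7.45e-06). Neither gene's groups overlapped. Of the ITAM system, the receptor Trem2 fell from 967 to 1116 CPM in BMM to 211 to 251 CPM in OC, and the adaptors Fcer1g and Tyrobp fell from means of 1646 and 798 to 549 and 571 CPM, while the receptor Oscar rose from the limit of detection. The kinase Syk did not pass (146 and 159 CPM). The adaptor Traf6 rose from 51.1 to 102 CPM and Traf3, which restrains the alternative NF-kB route, from 11.5 to 44.3 CPM.

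Of 13 NF-kB subunit and feedback genes, 9 rose, 2 fell and 2 did not pass (median log2 fold change 0.86), with 5 higher beyond 2-fold. The subunits of the alternative route rose: Nfkb2 had 52.7, 57.2 and 64.8 CPM in BMM and 168, 176 and 187 CPM in OC (log2 fold change 1.61 ± 0.06 SE, edgeR adjusted p = 4.69e-14), and Relb went from a median of 22.0 to 40.3 CPM. The classical-route subunits Nfkb1 and Rela fell, from 42.4 to 25.2 CPM and from 89.1 to 56.3 CPM. The inhibitor Nfkbia rose from 99.1 to 626 CPM.

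Transcription factors that drive osteoclast formation mostly rose and those that restrain it mostly fell. Of 22 activating factors, 15 rose, 6 fell and 1 did not pass (median log2 fold change 0.56; 8 higher and 2 lower beyond 2-fold). Nfatc1, the main regulator of the osteoclast, had 94.8, 104 and 124 CPM in BMM and 567, 859 and 917 CPM in OC (log2 fold change 2.90 ± 0.13 SE, edgeR adjusted p = 9.00e-11). The AP-1 member Fosl2 had 13.9, 19.4 and 22.9 CPM in BMM and 184, 196 and 213 CPM in OC (log2 fold change 3.38 ± 0.09 SE, edgeR adjusted p = 2.17e-15). Prdm1 (BLIMP1), which represses anti-osteoclast genes, had 0.878, 2.17 and 4.25 CPM in BMM and 45.6, 48.9 and 61.2 CPM in OC (log2 fold change 4.37 ± 0.30 SE, edgeR adjusted p = 4.02e-08). All OC libraries of these 3 were above all BMM libraries. Fos, another AP-1 member, rose from 54.7 to 243 CPM, Bhlhe40 from 44.4 to 412 CPM and Spi1 (PU.1) from 373 to 709 CPM, while Mef2c fell from 214 to 30.5 CPM. Myc passed by little, with groups that overlapped (72.7 to 97.4 and 89.6 to 110 CPM; edgeR adjusted p = 0.0238), and its call was lost in 6 of the alternatives run, among them leaving out BMM replicate 1 (adjusted p = 0.0600) or 4 (0.0525) and OC replicate 4 (0.0502) or 6 (0.0623).

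Of 12 repressing factors, 9 fell and 3 rose (median log2 fold change -1.10; 5 lower and 1 higher beyond 2-fold). Irf8, which holds precursors in the macrophage state, had 271, 275 and 289 CPM in BMM and 31.7, 34.2 and 35.2 CPM in OC (log2 fold change -3.05 ± 0.04 SE, edgeR adjusted p = 1.18e-18). Bcl6, which BLIMP1 is known to repress, had 15.4 to 18.1 CPM in BMM and 7.47 to 9.22 CPM in OC. The groups were apart for both genes. Klf4 was the exception of largest size, rising from 4.06 to 11.01 CPM. Calcium signalling, by which NFATc1 is activated, had no common direction (16 tested, 5 rose, 8 fell, 3 did not pass, median log2 fold change -0.20), with the calcineurin feedback inhibitor Rcan1 rising from 8.30 to 180 CPM and the channel Trpv4 falling from 53.9 to 6.97 CPM.

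The NFAT regulator also changed its form. Transcript usage, the share of each annotated transcript in its gene's TPM, was tested in 6108 genes with 2 or more transcripts, and 282 were called (4.62%), against 668 with a gene-level F test. Of the 282, 99 (1.62% of those tested) had a share that moved by at least 20 percentage points. Of these, 43 had at least 20 CPM in both groups, 37 of them with a called change in gene level and 6 without. The Nfatc1 gene lies on the minus strand of chromosome 18, and 4 of its transcripts were tested. Nfatc1-203 held 52.5% ± 2.60 of the gene's TPM in BMM and was listed at 0 in all 6 OC libraries, and Nfatc1-201 held 33.4% ± 2.10 in BMM and 70.5% ± 1.05 in OC (SD, n = 6; edgeR diffSpliceDGE, Simes p adjusted over genes 2.64e-23). These 2 share a start site but not an end: that of Nfatc1-201 lies 41230 bases upstream of that of Nfatc1-203. The other pair starts further upstream, Nfatc1-202 4885 bases and Nfatc1-204 a little less before that shared start. Nfatc1-202 and Nfatc1-204 together held 14.1% ± 1.83 in BMM and 29.5% ± 1.05 in OC, with no overlap between groups. In level, Nfatc1-201 went from a median of 10.8 to 198 TPM and Nfatc1-202 from 4.82 to 66.6 TPM, while Nfatc1-203 went from 16.5 TPM to a listed 0. The counts are split between overlapping transcripts by estimation, so an exact 0 can be a failed estimate. Mitf, a factor with several known promoters, showed no such change (Mitf-202 at 96.1% ± 1.77 in BMM and 97.0% ± 0.809 in OC, adjusted p = 1).

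The largest shifts in transcript share outside Nfatc1 were in Tnrc6c, Mtus1, Mfge8, Pip4p1 and Sh2d3c. Mfge8 encodes a bridging protein for the uptake of apoptotic cells, and its 2 transcripts start 7 bases apart. Mfge8-202 went from 23.2% ± 4.55 to 71.3% ± 2.92 of the gene (adjusted p = 5.87e-11), which in level was a median of 17.04 TPM in BMM and 116 TPM in OC, while Mfge8-201 stood at 51.9 and 49.0 TPM. Sh2d3c, an adaptor of integrin signalling, moved to a transcript that starts 6651 bases further downstream (Sh2d3c-202, 25.9% ± 7.24 to 71.5% ± 7.46, adjusted p = 8.71e-06). Tnrc6c-201, of a GW182 protein of microRNA silencing, went from 9.93% ± 9.62 to 67.0% ± 11.9 (adjusted p = 7.86e-05), and Pip4p1-205 from 33.6% ± 6.25 to 81.0% ± 9.48 (adjusted p = 1.81e-07). Mtus1-202 went from 2.84% ± 1.44 to 51.2% ± 21.2 (adjusted p = 5.76e-06; SD, n = 6), with OC libraries between 20.8% and 80.6%.

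**Figure D3:**
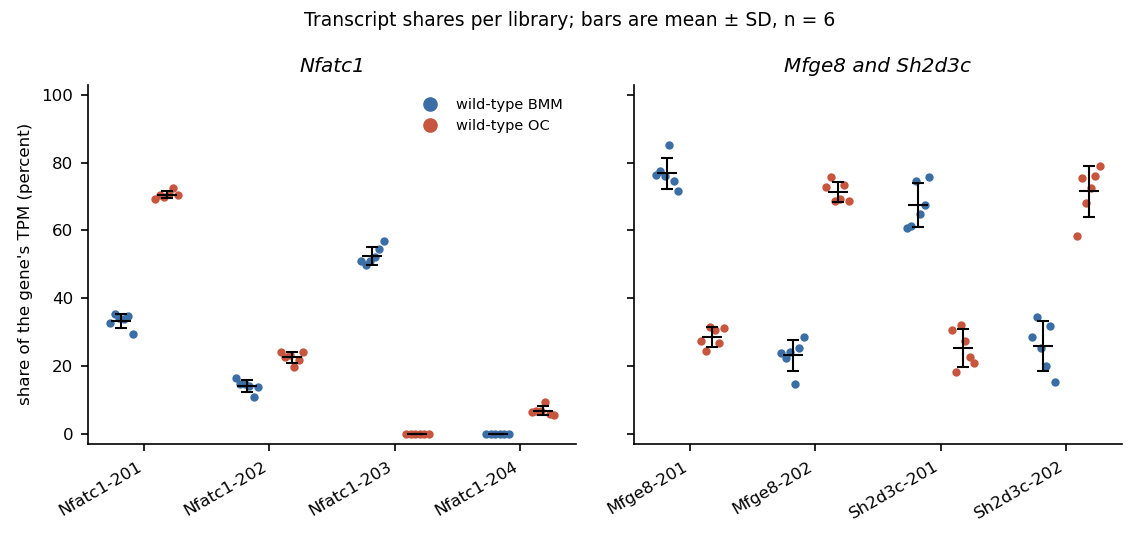
Share of each transcript in its gene's TPM (percent) in every wild-type BMM (blue) and OC (red) library, with mean and SD of 6 libraries in black, for Nfatc1 (left) and for Mfge8 and Sh2d3c (right). Nfatc1-203 falls from 52.5% to a listed 0 while Nfatc1-201 goes from 33.4% to 70.5%, and the 2 transcripts of Mfge8 change places.

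Mitochondrial energy genes rose together. Of 75 nuclear genes of oxidative phosphorylation tested, 73 rose, 0 fell and 2 (Ndufa7 and Ndufa2) did not pass, with a median log2 fold change of 0.93. Beyond 2-fold 23 rose. The list's share of TPM went from 2.31% ± 0.0488 to 4.89% ± 0.370 (SD, n = 6). By complex, 35 of 37 genes of complex I, 4 of 4 of complex II, 9 of 9 of complex III, 10 of 10 of complex IV and 14 of 14 of complex V rose, with medians of 0.79, 1.24, 1.25, 0.93 and 1.00. The most moved was Cycs, cytochrome c, from 60.6 to 301 CPM. Ndufs1, a core subunit of complex I, had 80.2, 83.2 and 89.4 CPM in BMM and 181, 192 and 199 CPM in OC (log2 fold change 1.19 ± 0.04 SE, edgeR adjusted p = 1.08e-13). Atp5a1, of the ATP synthase, had 393, 404 and 432 CPM in BMM and 906, 942 and 965 CPM in OC (log2 fold change 1.196 ± 0.04 SE, edgeR adjusted p = 1.90e-14). OC libraries were higher throughout for both. The 13 mRNAs encoded by mitochondrial DNA, examined after the values were seen, all rose as well (median log2 fold change 0.92), and the mitochondrially encoded share of counts was 0.775% ± 0.0474 in BMM and 1.56% ± 0.109 in OC. The share of mitochondrial reads can also follow RNA quality or the library, and its part in the result was not tested. The motif of NRF1, a factor that drives nuclear genes of mitochondria, was in 26.5% of the 68 promoter windows of the list and in 10.2% of all windows, and in 5.25% of those of genes that rose beyond 2-fold and 4.81% of those of genes that fell.

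All 21 genes of the TCA cycle tested rose (median log2 fold change 1.25), 12 of them beyond 2-fold. Idh3a, a subunit of isocitrate dehydrogenase, had 57.1, 70.1 and 91.1 CPM in BMM and 355, 369 and 377 CPM in OC (log2 fold change 2.34 ± 0.09 SE, edgeR adjusted p = 1.70e-12). Its groups did not overlap. Of 22 glycolysis and lactate genes, 15 rose, 6 fell and 1 did not pass (median 0.50), and beyond 2-fold 1 rose and 3 fell. Beyond 2-fold, 8.43% of all genes rose and 7.72% fell, so few members of this list stand out at that size. As a whole the list went from 1.18% ± 0.117 of TPM in BMM to 1.87% ± 0.116 in OC (SD, n = 6), without overlap between libraries. Ldhb had its highest log2 fold change, 3.22. Lactate dehydrogenase Ldha rose from 655 to 1015 CPM in BMM to 1429 to 1539 CPM in OC. At the entry of the pathway, Hk2 fell from a median of 51.1 to 29.6 CPM, Hk3 from 410 to 112 CPM and the regulator Pfkfb3 from 101 to 17.8 CPM. The glucose carrier Slc2a1 did not pass (59.3 to 102.5 and 77.8 to 101 CPM, edgeR adjusted p = 0.261; 0.0362 without BMM replicate 3).

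Of 19 genes of mitochondrial biogenesis and iron handling tested, 10 rose, 5 fell and 4 did not pass, with a median log2 fold change of 0.37. Tfrc, the transferrin receptor, had 57.4, 69.8 and 102.6 CPM in BMM and 1065, 1228 and 1342 CPM in OC (log2 fold change 4.001 ± 0.14 SE, edgeR adjusted p = 7.33e-12). Slc40a1 is described above, Slc11a1, an exporter of iron from the phagosome, fell from a median of 577 to 198 CPM, and the ferritin chains Fth1 and Ftl1 fell from 14549 to 4363 and from 39894 to 21359 CPM. Ppargc1b, a coactivator of mitochondrial genes, had 4.91, 6.85 and 9.08 CPM in BMM and 73.5, 74.4 and 91.4 CPM in OC (log2 fold change 3.503 ± 0.11 SE, edgeR adjusted p = 7.21e-14). For Tfrc and Ppargc1b no BMM library came near an OC library. Of 18 NADPH oxidase and redox genes, 7 rose and 11 fell. Cybb, the catalytic subunit of the phagocyte oxidase, fell 5.37-fold, from 808 to 991 CPM in BMM to 156 to 185 CPM in OC, and superoxide dismutases Sod1 and Sod2 rose from 77.1 to 194 and from 97.7 to 236 CPM.

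Osteoclasts send signals back to bone-forming cells. Of 12 coupling factors tested, 8 rose and 2 fell, all 10 beyond 2-fold, with a median log2 fold change of 1.66. Sphk1, which makes sphingosine-1-phosphate, had 0.293, 0.397 and 0.983 CPM in BMM and 16.97, 18.0 and 19.3 CPM in OC (log2 fold change 5.13 ± 0.17 SE, edgeR adjusted p = 2.88e-14). Sema4d, a semaphorin known to restrain osteoblasts, had 273, 288 and 326 CPM in BMM and 651, 735 and 809 CPM in OC (log2 fold change 1.32 ± 0.06 SE, edgeR adjusted p = 1.01e-12). Igf1, a growth factor for osteoblasts, went the other way, with 1170, 1258 and 1324 CPM in BMM and 120, 131 and 142 CPM in OC (log2 fold change -3.27 ± 0.05 SE, edgeR adjusted p = 2.48e-18). The groups were fully separated for the 3 genes. Of the cytokines and matrix proteins on the list, Lif had a BMM mean of 0.00919 CPM and 28.6 CPM in OC. Cthrc1 rose from a BMM mean of 0.110 CPM (edgeR adjusted p = 1.30e-11). Both BMM means lie below the level of 3 counts in a library (0.163 CPM), so neither is a measured level. Vegfa and Tgfb1 did not pass.

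Macrophage identity fell as a group. Of 16 identity genes tested, 15 fell and 1 rose (median log2 fold change -1.75), and 10 fell beyond 2-fold, against 7.72% of all genes. The list went from 5.33% ± 0.399 to 1.72% ± 0.0715 of all TPM. Mrc1, the mannose receptor, had 1134, 1230 and 1384 CPM in BMM and 150, 157 and 161 CPM in OC (log2 fold change -2.997 ± 0.05 SE, edgeR adjusted p = 6.26e-18). Adgre1 (F4/80), the usual marker of mouse macrophages, had 1812, 1955 and 2121 CPM in BMM and 969, 1013 and 1051 CPM in OC (log2 fold change -0.94 ± 0.04 SE, edgeR adjusted p = 3.22e-12). Lyz2 fell from a median of 34747 to 8658 CPM, Cx3cr1 from 310 to 36.8 CPM and Cd14 from 522 to 167 CPM. Every BMM library was above every OC library for these 5 genes. The gene that rose was Lyve1, at 1.05 CPM in OC and a BMM mean of 0.0149 CPM, below the level of 3 counts in a library (0.163 CPM).

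Receptors for antibody, debris and microbes were among the most reduced groups. All 7 Fc receptor genes tested fell, each beyond 2-fold, with a median log2 fold change of -3.06. The high-affinity receptor Fcgr1 had 46.8 to 69.6 CPM in BMM and 4.01 to 7.29 CPM in OC, and Fcgr3 fell from a mean of 2386 to 286 CPM. Of 14 genes for the uptake of apoptotic cells and for scavenging, 12 fell and 2 rose (median -2.45). The receptor kinase Axl had 31.1, 38.0 and 49.2 CPM in BMM and 1.62, 2.11 and 2.23 CPM in OC (log2 fold change -4.24 ± 0.12 SE, edgeR adjusted p = 5.54e-15), and its relative Mertk and their ligand Gas6 fell 6.74-fold and 7.40-fold. The 2 that rose, Mfge8 (97.9 to 208 CPM) and Itgav, encode a bridging protein and the αv integrin chain. Of 20 Toll-like and other pattern receptor genes, 16 fell, 1 rose and 3 did not pass (median -1.17). Tlr4, the receptor for bacterial lipopolysaccharide, had 131, 140 and 148 CPM in BMM and 58.0, 60.6 and 67.8 CPM in OC (log2 fold change -1.19 ± 0.05 SE, edgeR adjusted p = 3.71e-13), and Tlr7, Tlr8 and Tlr13, which read nucleic acids, fell from 211, 119 and 593 to 31.3, 17.5 and 144 CPM.

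Of 13 complement genes tested, 8 fell, 3 rose and 2 did not pass. The starter subunits C1qa, C1qb and C1qc fell from 1622, 4114 and 3587 to 255, 669 and 672 CPM, and the receptor C3ar1 fell from 1240 to 1473 CPM in BMM to 355 to 397 CPM in OC. The 2 inhibitors that protect a cell's own surface, Cd55 and Cd59a, rose with log2 fold changes of 4.15 and 2.19, and C3 rose from 9.13 to 30.3 CPM. Of 13 purinergic and resident-macrophage genes tested, 9 fell, all beyond 2-fold, and 4 rose. P2ry12, an ADP receptor of resident macrophages and microglia, had 41.0, 55.8 and 64.0 CPM in BMM and 5.55, 6.62 and 7.74 CPM in OC (log2 fold change -3.01 ± 0.11 SE, edgeR adjusted p = 3.18e-13). The transporter Slco2b1 fell 273-fold, from 88.9 to 0.326 CPM, and the orphan receptor Gpr34 69.5-fold, from 50.3 to 0.724 CPM. Of 8 alternative activation genes tested, 5 fell, 2 rose and 1 did not pass (median log2 fold change -0.75), and Arg1, an arginine-degrading enzyme, fell by 1.94 on the log2 scale (edgeR adjusted p = 4.51e-05).

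Most genes of the chemokine list fell, while Ccl9 and the receptors Ccr1 and Ccr3 on it rose. Other chemokines were counted elsewhere: Ccl22, on the alternative activation list, and Cxcl10, on the interferon list, had log2 fold changes of 6.34 and 1.46. Of 18 chemokine and receptor genes tested, 13 fell, 3 rose and 2 did not pass (median log2 fold change -1.26; 10 lower and 2 higher beyond 2-fold). Ccr1 had 11.5, 20.0 and 21.6 CPM in BMM and 536, 574 and 613 CPM in OC (log2 fold change 4.97 ± 0.13 SE, edgeR adjusted p = 2.92e-13), and Ccr3 rose from 7.20 to 35.7 CPM. Ccl9, a ligand of Ccr1 known to be made by osteoclasts, had 355, 395 and 457 CPM in BMM and 697, 810 and 863 CPM in OC (log2 fold change 0.97 ± 0.06 SE, edgeR adjusted p = 2.55e-10). Both members of this ligand and receptor pair were higher in every OC library. Ccl2, Ccl3, Ccl4 and Ccl6 fell, from 361, 74.5, 109 and 264 CPM to 220, 13.8, 16.5 and 37.0 CPM. The monocyte receptor Ccr2 was near 1 CPM in both groups and did not pass (edgeR adjusted p = 0.699).

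Of 7 MHC class II genes, 5 rose and 2 fell, with a median log2 fold change of 3.37. Cd74, the invariant chain, had 10.6, 23.5 and 33.2 CPM in BMM and 342, 383 and 422 CPM in OC (log2 fold change 4.09 ± 0.22 SE, edgeR adjusted p = 4.78e-09). Ciita, the master regulator of the class, had 0.0448, 0.109 and 0.468 CPM in BMM and 2.90, 3.79 and 5.04 CPM in OC (log2 fold change 4.59 ± 0.32 SE, edgeR adjusted p = 8.26e-10). H2-Aa, H2-Ab1 and H2-Eb1 rose from 1.25, 5.83 and 0.904 to 22.9, 42.8 and 9.29 CPM, while the peptide-loading genes H2-DMa and H2-DMb1 fell from 24.8 and 54.1 to 6.53 and 36.1 CPM. The 5 genes that rose did so in all OC libraries. Markers of dendritic cells, which carry class II at high levels, summed to 0.526 to 1.21 TPM in BMM and 2.50 to 3.02 TPM in OC, with Zbtb46 rising from 0.751 to 4.77 CPM and Cd209a and Ccr7 at 3 counts or fewer in every library. Of 14 class I genes, 11 fell, 2 rose and 1 did not pass (median -0.46), and 0 passed beyond 2-fold. Tap1, a peptide transporter, passed with overlapping groups (edgeR adjusted p = 0.0410), and its call was lost without any 1 of BMM replicates 2, 3 and 6 and OC replicates 1, 2 and 5 (0.0515 to 0.0975), as well as with the replicate block (0.0674), in the 24-library fit (0.0678) and by library size alone (log2 fold change -0.066, 0.541). B2m, the light chain of class I, had 1400 to 2035 CPM in BMM and 763 to 1132 CPM in OC.

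Type I interferon-stimulated genes were lower in OC. Of 24 tested, 20 fell, 1 rose and 3 did not pass (median log2 fold change -0.82; 5 lower beyond 2-fold). Ifit3 had 28.3, 39.0 and 76.3 CPM in BMM and 8.07, 12.3 and 25.4 CPM in OC (log2 fold change -1.68 ± 0.36 SE, edgeR adjusted p = 0.00128), so the groups were close but did not overlap. Irf7 passed by little with overlapping groups (53.4 to 105 and 42.3 to 74.3 CPM; edgeR adjusted p = 0.0451), and its call was lost without any 1 of BMM replicates 1, 2 and 6 and OC replicates 1 to 5 (adjusted p of 0.0507 to 0.101), as well as by library size alone (0.152), with no filter (0.0782) and in the 24-library fit (0.119). The core of the interferon response element was in 55.0% of the 20 promoter windows of the list and in 3.26% of all windows, in 5.42% of those of genes that fell beyond 2-fold and in 2.18% of those of genes that rose.

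Proliferation, protein synthesis and sterols changed less. Of 28 cell cycle genes, 23 rose, 2 fell and 3 did not pass, with a median log2 fold change of 0.52, and 0 passed beyond 2-fold. Mki67 had 55.9, 66.3 and 81.9 CPM in BMM and 85.6, 92.3 and 99.6 CPM in OC (log2 fold change 0.43 ± 0.08 SE, edgeR adjusted p = 1.54e-04). Ccnd1, the cyclin that responds to growth factors, fell from 580 to 1334 CPM in BMM to 427 to 474 CPM in OC. Of 39 ribosomal protein genes tested, 26 rose and 13 did not pass (median 0.35), and the ribosomal protein share of counts was 1.32% ± 0.0763 in BMM and 1.81% ± 0.195 in OC. Of 24 cholesterol genes, 12 rose, 6 fell and 6 did not pass, so the share called was near the 71.0% of all genes. Abca1, which exports cholesterol, had 146, 250 and 319 CPM in BMM and 45.6, 51.3 and 67.9 CPM in OC (log2 fold change -2.18 ± 0.16 SE, edgeR adjusted p = 6.69e-08). Fdps, the target of bisphosphonate drugs in osteoclasts, did not pass (edgeR adjusted p = 0.282).

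**Figure D4:**
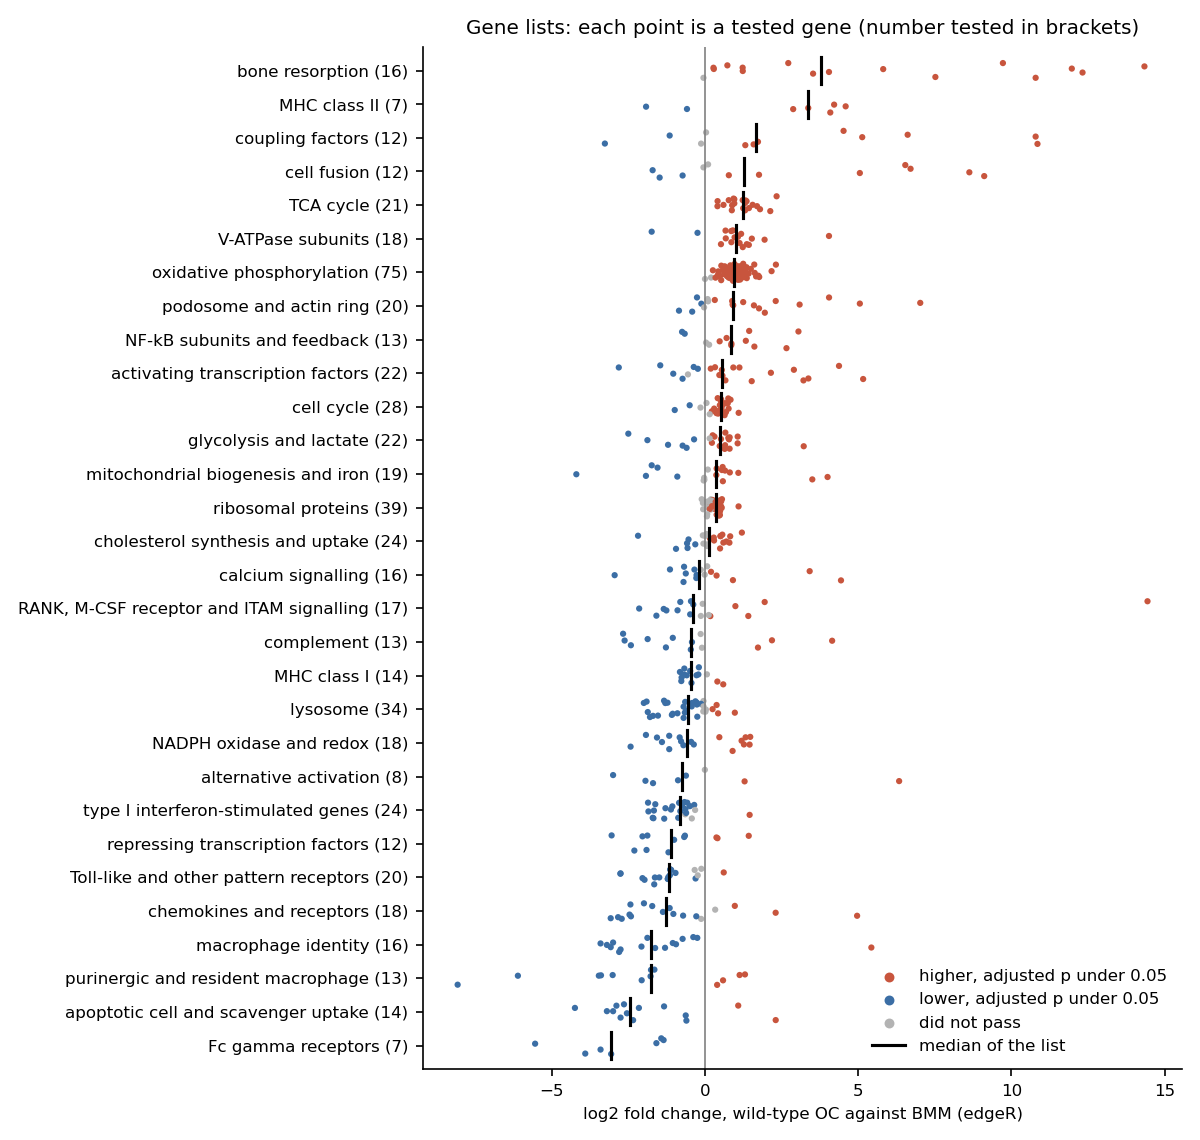
Log2 fold change of OC against BMM (edgeR) for every tested gene of the 30 program lists, ordered by their median (black line), with the number tested in brackets; red points are higher and blue points lower at an adjusted p under 0.05, and grey points did not pass. The lists run from bone resorption (median 3.79) at the top to Fc receptors (median -3.06) at the bottom, and those near 0 hold genes that moved both ways.

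The wild-type response was then set against the same contrast in Mir324-null cells, which lack the microRNA gene Mir324. The RANK-L response differed between the genotypes in 6507 of 12671 genes (51.4%; edgeR interaction test on 24 libraries). Of the 1016 genes that rose beyond 2-fold in wild type, 942 had a called difference, in each case a more positive change in wild type, and of the 931 that fell, 909 had one, each more negative in wild type. These genes were chosen by their wild-type change, so that direction is in part fixed by the choice. The median log2 fold change of the genes that rose was 2.26 in wild type and 0.12 in null cells, and that of the genes that fell was -1.81 and -0.035, with -0.0042 over all genes in null cells. In null cells 12.9% of all genes were called (1629), 6.77% higher and 6.08% lower, against 7667 genes in wild type in the same 24-library fit. Libraries varied more in the null groups. Their biological coefficient of variation, the spread beyond counting noise, was 18.16% in BMM and 18.15% in OC, against 11.33% and 9.18% in wild type. Counts of calls in the 2 genotypes are therefore not directly comparable. Of the genes that rose in wild type, 121 were called higher and 26 lower in null cells, and of those that fell, 83 were called lower and 59 higher. Ctsk changed by 10.79 in wild type and 4.34 ± 0.37 in null cells (log2, SE), Mmp9 by 14.34 and 0.50 ± 0.11, and Slc40a1 by -4.19 and 0.04 ± 0.09. Oxidative phosphorylation genes had a median change of 0.94 in wild type and -0.24 in null cells, with a called difference for 75 of 75, MHC class II genes 3.37 and -0.19 (7 of 7), and Fc receptor genes -3.06 and -0.26 (7 of 7). The cell cycle list was less divided, with medians of 0.53 and 0.31 and a called difference for 12 of 28 genes. The interaction calls of Rufy4 (adjusted p = 0.00784), Oscar (2.55e-04) and Mt3 (0.0259) were each lost when 1 null BMM library was left out: to 0.0537 and 0.0532 for Rufy4 (without replicate 1 or 5), 0.0757 for Oscar (without 1), and 0.136 and 0.134 for Mt3 (without 2 or 4).

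**Figure D5:**
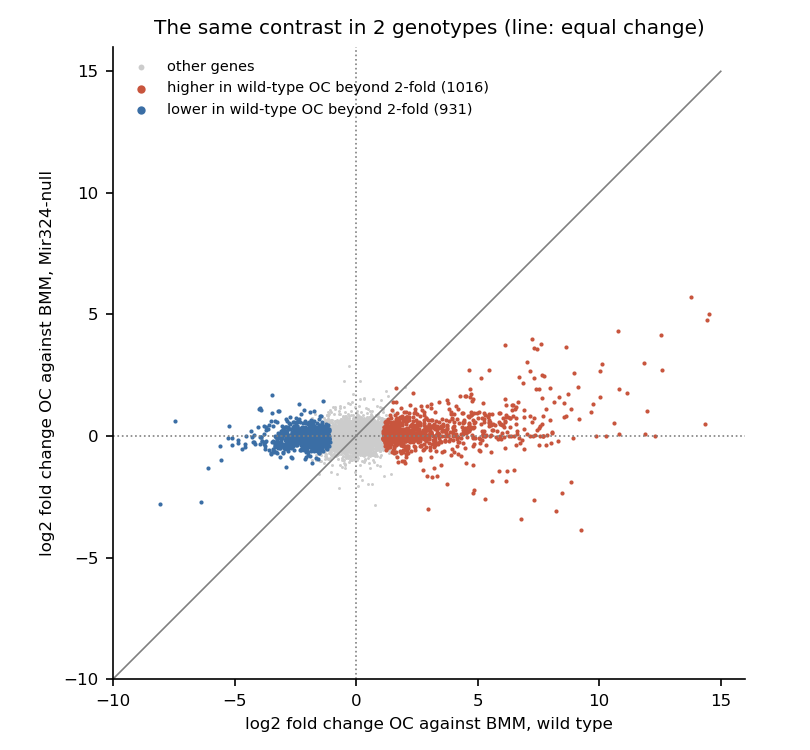
Log2 fold change of OC against BMM in wild-type cells (x axis) and in Mir324-null cells (y axis), 6 libraries per group, with red points the 1016 genes higher and blue points the 931 genes lower beyond 2-fold in wild type; the diagonal marks equal change. Most coloured points lie along the horizontal line at 0 in null cells, and a minority of the red ones reach up toward the diagonal.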

How the data were processed

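The tables were deposited per library for each library and list, per Ensembl mouse transcript, a length, TPM and an estimated count. The submitters' processing notes name kallisto and DESeq2 without versions, and they list the human build GRCh38, although the identifiers are of mouse. The authors' expected counts are estimates split between transcripts, so genes with near-identical copies or overlapping neighbours are uncertain; their TPM values, scaled to a fixed total per library, keep no depth. Of 88198 transcripts, 97.6% were found in GENCODE M21 (GRCm38), with the length annotated there for 88.9%. Transcripts not found, 0.766 to 0.889% of the counts of a library, were left out. Gene values are sums of the estimated counts of a gene's transcripts, rounded, for 30284 genes.

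The wild-type contrast used edgeR 4.0.16 in R 4.3.3 (filterByExpr, TMM, robust quasi-likelihood F test, Benjamini-Hochberg over all genes tested, threshold 0.05). A change beyond 2-fold was tested with glmTreat at a log2 fold change of 1, transcript usage with diffSpliceDGE, the difference from Mir324-null cells as an interaction on 24 libraries, and library composition by exact permutation. The fit was confined to the 12 wild-type libraries because earlier results gave the null groups a wider spread. CPM are estimated counts scaled to the TMM library size; where a group had 0 counts a fold was computed against 3 counts per library. The genes named are the 8 largest rises and 8 largest falls among called genes with at least 100 CPM in the higher group, the members of 30 gene lists marked by role, and, for transcript usage, Nfatc1, Mitf and the 6 largest called shifts among genes with at least 20 CPM in both groups. The libraries, lists and named members were chosen with earlier results of these data known; the mitochondrial mRNAs and list members outside this rule were named after their values were seen. Same-numbered libraries did not deviate together (correlations from -0.052 to 0.089), and replicates differed by more than sampling noise (chi-square per gene of at least 3.46). On simulated data the wild-type step recovered 97.1% of genes changed 1.5-fold and 100% of those changed 2-fold among 11793 genes, with 5.7% false calls. The simulation changed only a small set of well-counted genes, equally up and down, at a single fixed dispersion. It therefore does not cover genes near 0 counts or a change in most genes. Alternatives were other scalings, filters and tools (DESeq2 1.42.0, limma 3.58.1 voom), a length offset, the replicate block, a 24-library fit and leaving out each library. A few members of the lists that enter the counts are not reported here by name.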

Additional observations from a re-analysis of the deposited data

Results flagged for a closer look

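In groups of 6 libraries, 12 of 216 sets of values (5.6%) had 1 library standing apart from the others, where chance alone gives about 1 in 20. In BMM these were Oscar in replicate 2 (0.0552 CPM, 0 in the others), Ocstamp in replicate 5 (1.18 CPM), Ciita in replicate 1 (0.468 CPM), Ccr2 in replicate 2 (1.66 CPM) and the share of Mtus1-202 in replicate 3 (0%). In OC, replicate 4 stood apart for Mt3 (149 CPM, lowest), Clcn7 (799 CPM, highest) and Mitf (126 CPM, highest), and replicate 6 for Tlr4 (67.8 CPM, highest). Prdm1 in replicate 5 (61.2 CPM, highest), the number of genes with at least 3 counts in replicate 3 (14037, highest) and the share of Pip4p1-205 in replicate 1 (62.0%, lowest) were the other cases.

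The log2 response to RANK-L differed between wild-type and Mir324-null cells in 6507 genes by the edgeR interaction test. For the genes with the largest rises the difference, wild type minus null, was 9.49 for Rufy4, 9.66 for Oscar, 13.84 for Mmp9, 8.37 for Mt3, 10.93 for Car2, 6.46 for Ctsk, 8.43 for F2r and 8.42 for Acp5. The values of Rufy4, Oscar, Mt3 and Car2, with 0, 1, 3 and 6 counts over the wild-type BMM libraries, are fitted values that depend on the prior count and are neither sizes nor bounds. For those with the largest falls it was -4.57 for Fcrls, -4.23 for Slc40a1, -3.92 for Trf, -3.86 for Fcgr2b, -3.20 for F13a1, -2.79 for Apoe, -2.78 for Entpd1 and -3.09 for Rnase4.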

How the results depend on the processing

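Leaving out each library in turn gave 8327 to 8656 called genes, 1910 to 2014 beyond 2-fold, 6205 to 6757 for the difference from null cells and 259 to 291 for transcript usage. Other scalings, filters and tools gave 7667 (24-library fit) to 9177 (no filter) called genes. A gene-level F test in place of Simes called 668 genes for transcript usage against 282. With the replicate number as a block, 8502 genes were called, 1937 beyond 2-fold, 6199 for the difference from null cells and 273 for transcript usage; only 1 of 6 OC libraries correlated best with the BMM library of its own number, so the numbers are not shown to pair libraries. By library size alone 8716 genes were called. No list median changed sign and no named gene reversed under the alternatives run. Of their values for named genes, 2516 kept direction and call, 31 lost the call and 6 gained it. These were Irf7, Tap1 and Myc, which lost it, Cd9, Slc2a1 and Fdps, which gained it, and the interaction calls of Rufy4, Oscar and Mt3. Depth limits the genes at or near 0 counts in BMM: their ratios are bounds or wide intervals, and their fitted log2 values depend on the prior count.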
